A study of Ictidomys tridecemlineatus with 31 samples.

Results

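The 10 genes described here handle phosphate, calcium and vitamin D in the kidney, and they were followed through the hibernation year of the 13-lined ground squirrel. They were chosen by name, with case ignored, from 12863 genes in the deposited kidney table: the phosphate cotransporters Slc34a1, Slc34a3 and Slc20a2, the FGF23 co-receptor Kl (klotho), the vitamin D genes Cyp27b1, Cyp24a1 and Vdr, and the calcium genes Trpv5, Calb1 and Casr. All 10 were in the table, each in 1 row. RNA came from a fragment of the frozen kidney of perfused captive animals of both sexes, and each library is 1 animal. The 6 states were SA (summer active, homeothermic animals fattening in August), IBA (interbout aroused, warm for a short while between torpor bouts), Ent (entering torpor, with body temperature falling), EAr (early arousing, still cold), LAr (late arousing, rewarming) and SpD (spring dark, still in the cold dark hibernaculum but homeothermic since the last torpor bout).

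The table holds 5 animals each of SA, IBA, Ent, EAr and SpD and 6 of LAr. The study left out animals 137 (SA) and 113 (LAr) of these 31 from its test of expression, so the values given first rest on the other 29. Each result was also computed with all 31, and with 28 when SpD animal 130 was left out as well. Of the 31 animals, 9 belong to sequencing experiment 1 (3 each of IBA, Ent and SpD) and 22 to experiment 2, which used another library kit and instrument and alone holds SA, EAr and LAr.

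The proximal tubule reclaims filtered phosphate through the sodium-phosphate cotransporters NaPi-IIa (Slc34a1), NaPi-IIc (Slc34a3) and PiT-2 (Slc20a2), and parathyroid hormone and FGF23 withdraw the first of them from the brush border. FGF23 acts through a receptor that needs klotho, which is most abundant in the distal tubule. The proximal tubule also activates vitamin D with the 1-alpha-hydroxylase Cyp27b1 and breaks it down with the 24-hydroxylase Cyp24a1, while the vitamin D receptor Vdr turns on Cyp24a1. In the distal tubule, calcium enters through the channel Trpv5, is carried by calbindin-D28k (Calb1) and leaves by exchangers and pumps, and the calcium-sensing receptor Casr reads blood calcium in the thick ascending limb.

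Values are rlog, a log2 scale made from counts and corrected for experiment by the authors. A difference of 1 is a 2-fold change, and levels are not comparable between genes. For 1 gene they are comparable between animals of the same experiment. The correction made the means of both experiments equal, although only experiment 2 holds SA, EAr and LAr. Levels of experiment 1 animals may therefore be shifted against those of experiment 2, and ranges and overlaps given below across experiments carry this limit. Counts and depth are unknown, so the error is the spread between animals. Differences come from limma with state, sex and experiment as terms, and q is its p adjusted by the Benjamini-Hochberg method over all 12863 genes. A gene was called at q below 0.001, the threshold of the study, and counts at q below 0.05 are given as well. Hibernation means the IBA, Ent, EAr and LAr animals, each state weighted equally, and active means SA and SpD.

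With 29 animals, none of the 10 genes was called across the 6 states, where 9.34% of all genes were, although 6 had an unadjusted limma p below 0.05. At q below 0.05, Slc20a2, Slc34a1, Cyp24a1 and Slc34a3 passed (q = 0.00639, 0.00997, 0.0141 and 0.0170), against 46.1% of all genes. Without animal 130, Slc34a1 (q = 3.91e-05) and Slc34a3 (q = 0.000687) were called across states, against 9.24% of all genes. With all 31 animals none was, against 5.58% of all genes, with 5 at an unadjusted p below 0.05.

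**Figure D1:**
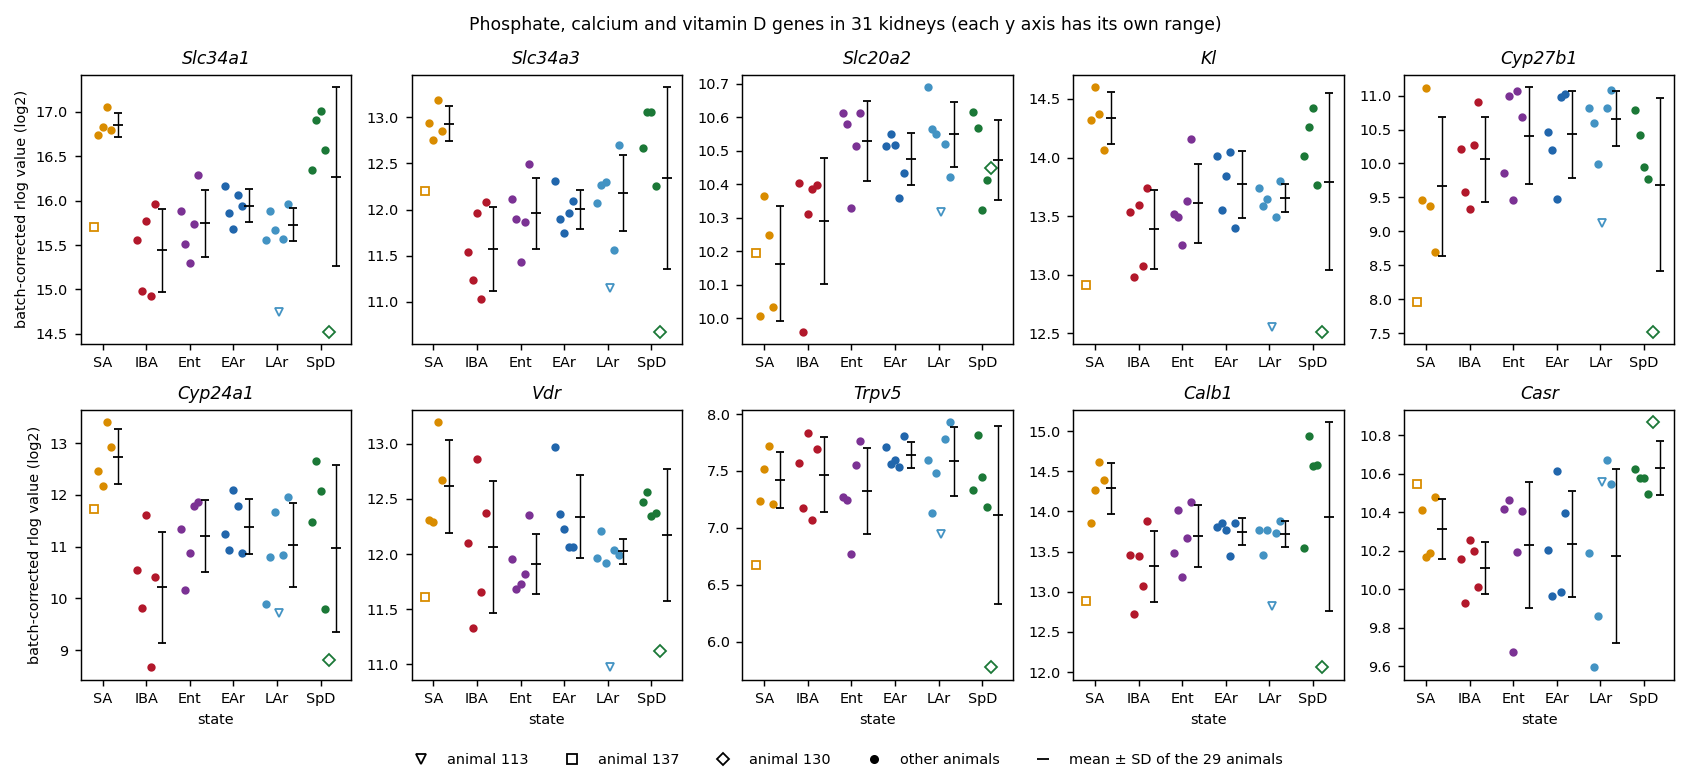
Each panel shows the rlog values (log2 scale) of 1 of the 10 genes, with the 6 states on the x axis, 1 point for each of the 31 animals and the mean ± SD of the 29 animals beside them in black. Animals 113, 137 and 130 have open symbols. The SA animals other than 137 stand above the hibernation animals for Slc34a1 and Cyp24a1, and the marked animals lie below their states in most panels.

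Slc34a1, the main phosphate cotransporter of the brush border, was lowest in the interbout animals and highest in summer. Its rlog values in the SA animals were 16.74, 16.79, 16.83 and 17.05, with animal 137 apart at 15.70. In IBA they were 14.92, 14.99, 15.56, 15.77 and 15.96, so the groups did not overlap with animal 137 left out. Over the 20 hibernation animals of the set of 29 the lowest, median and highest were 14.92, 15.75 and 16.28. The SpD animals were at 16.35, 16.57, 16.90 and 17.01, above every one of those 20, while animal 130 at 14.53 was below all of them.

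In IBA Slc34a1 was 1.59 ± 0.36 (SE) log2 units below SA, which is 3.02-fold lower (95% interval of the log2 difference -2.33 to -0.86, q = 0.00278). Hibernation as a whole was lower than the active states by 0.85 ± 0.19, or 1.80-fold (q = 0.00163). Neither passed 0.001 with 29 animals. Without animal 130 both did: IBA was 2.51-fold below SA (q = 0.000321), and hibernation was 2.11-fold below the active states, with all 8 active animals above all 20 hibernating ones (difference -1.08 ± 0.13, q = 1.76e-06). With 31 animals the season difference was -0.76 (q = 0.00741).

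Slc34a3, the smaller partner of Slc34a1 in the brush border, was also highest in SA and lowest in IBA by its state means. SA animals were at 12.75, 12.85, 12.94 and 13.19, with 137 at 12.20, and IBA animals at 11.03, 11.24, 11.54, 11.96 and 12.09, so that no IBA animal reached SA. IBA was 1.61 ± 0.36 below SA, which is 3.06-fold (q = 0.00275), and hibernation was 0.71 ± 0.19 below the active states (q = 0.00712). Without animal 130 the IBA difference was -1.37 ± 0.27 (q = 0.000936) and the season difference -0.92 ± 0.15 (q = 6.72e-05, 1.89-fold lower). The IBA call stood close to the threshold, and it was lost when any 1 of 22 of the 28 animals was left out.

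Slc20a2, a phosphate transporter found in many cell types, went the other way and by little. The SA values ran from 10.01 to 10.36 and the SpD values from 10.32 to 10.62, with the 20 hibernation animals from 9.96 to 10.69 and a median of 10.51. SA was 0.33 ± 0.10 below SpD (q = 0.0371), and hibernation was 0.14 ± 0.05 above the active states (q = 0.0454). These are below 0.05 and not below 0.001, and neither held at 0.05 without animal 130 (q = 0.115 and 0.0696).

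Kl was likewise highest in summer. SA animals were at 14.06, 14.32, 14.37 and 14.60, with 137 at 12.91, and IBA animals at 12.98, 13.08, 13.53, 13.60 and 13.74, again without overlap when 137 was left out. IBA was 1.09 ± 0.29 below SA, which is 2.13-fold (q = 0.00839), and hibernation was 0.46 ± 0.15 below the active states (q = 0.0241). Without animal 130 the season difference was -0.63 ± 0.12 (q = 0.000239, 1.55-fold lower), and with 31 animals it was -0.35 (q = 0.162).

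**Figure D2:**
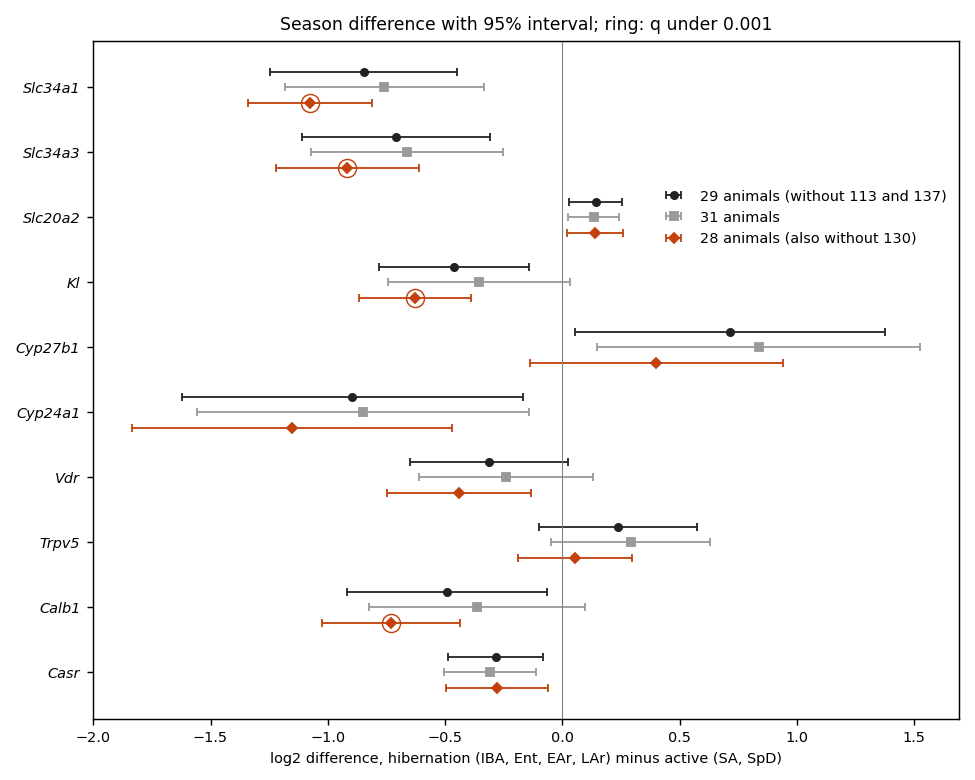
The log2 difference between hibernation and the active states (x axis, negative where lower in hibernation) is drawn for each of the 10 genes with its 95% interval, for 29, 31 and 28 animals, with a ring at q below 0.001. Slc34a1, Slc34a3, Kl and Calb1 move away from 0 and their intervals narrow when animal 130 is left out (28 animals), while Casr hardly moves and Cyp27b1 comes closer to 0.

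For the season as a whole, none of the 10 genes was called with 29 animals, against 9.73% of all genes, although 8 had an unadjusted limma p below 0.05. At q below 0.05, Slc34a1, Slc34a3, Kl and Casr were lower in hibernation and Slc20a2 was higher, with 33.4% of all genes passing, 16.8% lower and 16.6% higher. With 28 animals, Slc34a1, Slc34a3, Kl and Calb1 were called, all lower in hibernation, against 10.1% of all genes called and 5.99% called lower. The median log2 difference of the 10 genes was -0.39 with 29 animals and -0.54 with 28, against 0.00 for all genes in both. With 31 animals the count called was 0, against 7.24% of all genes, with 6 at an unadjusted p below 0.05.

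Cyp24a1, which inactivates vitamin D hormone and its precursor, had the largest difference of the 10 genes between IBA and SA. The SA animals were at 12.17, 12.46, 12.93 and 13.40, and animal 137 at 11.73 was below them. The IBA animals were at 8.67, 9.82, 10.42, 10.55 and 11.61, so that every SA animal, 137 included, was above every IBA animal. The SpD animals spread from 8.81 to 12.66 and overlapped both groups.

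IBA was 3.09 ± 0.65 below SA, which is 8.50-fold lower (95% interval of the log2 difference -4.43 to -1.75, q = 0.00178). It was 7.43-fold lower with 31 animals (q = 0.00582) and 6.92-fold lower with 28 (q = 0.00195), so it passed 0.05 in each set and 0.001 in none. SA was also 5.04-fold above SpD with 29 animals (q = 0.0264), a difference that fell to 1.53 on the log2 scale and lost its call at 0.05 without animal 130 (q = 0.21). In experiment 2 alone, with 2 SpD animals of which 1 is animal 130, SA was 3.44 above SpD on that scale (q = 0.00128). Between seasons the difference was -0.90 ± 0.35 (q = 0.0529), and -1.15 ± 0.33 without animal 130 (q = 0.00967). Across the 6 state means with 29 animals, SA was 1.36 above the next state, EAr, with no overlap between the animals of those 2 states. With 31 animals they overlapped through animal 137, and with 28 the next state was SpD, which overlapped SA.

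Cyp27b1, which makes the active hormone, was not called in any comparison, and its season difference had the opposite sign to that of Cyp24a1. Its SA animals ran from 8.70 to 11.11 with 137 at 7.96, the 20 hibernation animals from 9.34 to 11.08 and the SpD animals from 7.53 (animal 130) to 10.78, so the seasons overlapped. Hibernation was 0.72 ± 0.32 above the active states (95% interval 0.05 to 1.38, q = 0.0885), and 0.40 ± 0.26 above without animal 130 (interval -0.14 to 0.94, q = 0.25). In experiment 2 alone, with animal 130, it was 1.46 higher (q = 0.0066). Between IBA and SA the interval ran from -0.87 to 1.57 (q = 0.705). The spread between animals thus excluded no difference in that range, from a fall of less than 2-fold to a rise of more than 2-fold.

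Vdr, the receptor for the hormone, ran from 12.29 to 13.19 in SA without animal 137, from 11.33 to 12.97 in the 20 hibernation animals, and from 12.35 to 12.56 in SpD without animal 130, which was at 11.12. Hibernation was lower by 0.31 ± 0.16 with 29 animals (q = 0.144) and by 0.44 ± 0.15 with 28 (q = 0.0255). The ranges overlapped in each set.

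Calb1, the calcium carrier of distal tubule cells, was lower in IBA than in SA at q below 0.05. SA animals were at 13.86, 14.27, 14.40 and 14.62, with 137 at 12.88. IBA animals were at 12.72, 13.07, 13.44, 13.46 and 13.88, so that 1 IBA animal overlapped the lowest of SA. SpD animals were at 13.54, 14.56, 14.57 and 14.94, with 130 at 12.06, the lowest value of all 31.

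IBA was 1.12 ± 0.38 below SA for Calb1, which is 2.17-fold (q = 0.0365). Hibernation was 0.49 ± 0.21 below the active states with 29 animals (q = 0.0708) and 0.73 ± 0.14 below with 28 (q = 0.000422, 1.66-fold lower). This last call was lost when any 1 of SA animals 140 and 141 or SpD animals 80, 83 and 84 was left out.

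Trpv5, the calcium entry channel, was not called between seasons. Its levels ran from 6.77 to 7.93 in the 20 hibernation animals and from 7.18 to 7.82 in the 8 active animals without 130, which was at 5.77. The season difference was 0.24 with 29 animals (95% interval -0.0984 to 0.58, q = 0.27), 0.62 in experiment 2 alone (q = 0.0134) and 0.05 with 28 animals (interval -0.19 to 0.30, q = 0.754), so its size rested on animal 130.

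For Casr, the calcium sensor, animals 130 and 137 were the highest of their states, where for 8 of the other genes they were the lowest. The SpD animals were at 10.50, 10.58, 10.58, 10.63 and 10.87, above the SA animals other than 137 (10.17 to 10.48) and above every IBA animal (9.93 to 10.25). SpD was 0.52 ± 0.15 above IBA, which is 1.43-fold (q = 0.0296), and hibernation was 0.28 ± 0.10 below the active states (q = 0.0291). The mean of the thick ascending limb markers (5 of 5 in the table) went the same way in these comparisons and in animal 130. It was 0.58 ± 0.19 higher in SpD than in IBA, differed by -0.41 ± 0.12 between seasons, and stood at 13.60 in animal 130 against 12.44 to 13.16 in the other SpD animals. It did not follow Casr in the other marked animals. In 137 it was 12.86, among the other SA animals (12.09 to 12.92). In 113 it was 12.03, below the other LAr animals (12.16 to 12.35), where Casr was among them at 10.56. Casr minus these markers averaged -2.15 in hibernation and -2.28 in the active animals, with ranges that overlapped, and the part of the markers in the Casr difference was not tested. Casr was 1 of 3 genes, beside Slc34a1 and Slc34a3, whose season difference stayed below 0.05 in all 3 sets of animals (q = 0.0171 with 31 and 0.0451 with 28).

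Between IBA and SA, none of the 10 genes was called with 29 animals, against 3.15% of all genes, with 6 at an unadjusted limma p below 0.05. At q below 0.05, Slc34a1, Slc34a3, Kl, Cyp24a1 and Calb1 were lower in IBA and none was higher, against 22.9% of all genes passing and 12.5% lower. With 28 animals Slc34a1 and Slc34a3 were called lower, against 2.73% of all genes lower. The median difference of the 10 genes was -0.89 with 29 animals and -0.69 with 28, against 0.03 and 0.02 for all genes. With 31 animals none was called, against 0.381% of all genes, with 4 at an unadjusted p below 0.05, and Slc34a1, Slc34a3 and Cyp24a1 stayed lower at q below 0.05, against 6.11%.

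Between SpD and IBA, none was called with 29 animals, against 1.25% of all genes, with 4 at an unadjusted limma p below 0.05, and only Casr was below q of 0.05, higher in SpD, against 11.9% of all genes passing and 6.48% higher. With 28 animals Slc34a1 was 1.29 ± 0.21 higher in SpD, which is 2.44-fold (q = 0.000256), against 1.2% of all genes called higher. Slc34a3, Kl, Calb1 and Casr were higher at q below 0.05 (q = 0.00203, 0.00954, 0.00258 and 0.0471), against 7.92% of all genes. With 31 animals none was called, against 0.521% of all genes, with 4 at an unadjusted p below 0.05.

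Both experiments hold SpD and IBA animals, so this comparison was also made within each. In experiment 1, with 3 animals a state, Slc34a1 was 1.31 higher in SpD, Slc34a3 1.35, Kl 0.86, Cyp24a1 1.41 and Calb1 1.14. In experiment 2, with 2 animals a state, of which 1 SpD animal is 130, the same differences were 0.10, -0.09, -0.27, -0.24 and -0.16. With animal 130 left out, which leaves 1 SpD animal, they were 1.13, 0.69, 0.36, 0.26 and 1.10. Casr was higher in SpD each way, by 0.48, 0.58 and 0.39. No interaction of state with experiment passed q of 0.05 for any of the 10 genes. For SpD and IBA 0 of all genes passed, so this does not show that the experiments agreed for the members. The largest such interaction among them was -2.40 for Cyp27b1 (experiment 2 minus experiment 1, limma q = 0.389).

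Experiment 1 holds no SA animal, so the comparisons with SA and between seasons could be repeated only in experiment 2. There the difference of IBA from SA was -3.06 for Cyp24a1 (q = 0.00272) and -1.49 for Slc34a1 (q = 0.0179). These differences rest on 2 IBA animals, 104 and 171, and on the 4 SA animals. Between seasons the differences with animal 130 were -0.44 for Slc34a1 (q = 0.146), -0.23 for Slc34a3 (q = 0.437), -0.0683 for Kl (q = 0.778), -0.0413 for Cyp24a1 (q = 0.932) and -0.12 for Calb1 (q = 0.731). Without animal 130, which left 1 SpD animal, they were -0.94 (q = 0.0012), -0.62 (q = 0.0425), -0.38 (q = 0.0846), -0.38 (q = 0.481) and -0.73 (q = 0.00463). Members that were higher in hibernation differed there by 1.46 for Cyp27b1 (q = 0.0066), 0.62 for Trpv5 (q = 0.0134) and 0.19 for Slc20a2 (q = 0.012) with animal 130, and by 0.92 (q = 0.09), 0.24 (q = 0.203) and 0.22 (q = 0.0234) without it. Vdr and Casr differed by -0.0879 (q = 0.75) and -0.25 (q = 0.117) with animal 130, and by -0.38 (q = 0.181) and -0.24 (q = 0.252) without it. With animal 130, none of the 10 genes was called at 0.001 there, while 1186 of all genes were across states and 1238 between seasons.

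**Figure D3:**
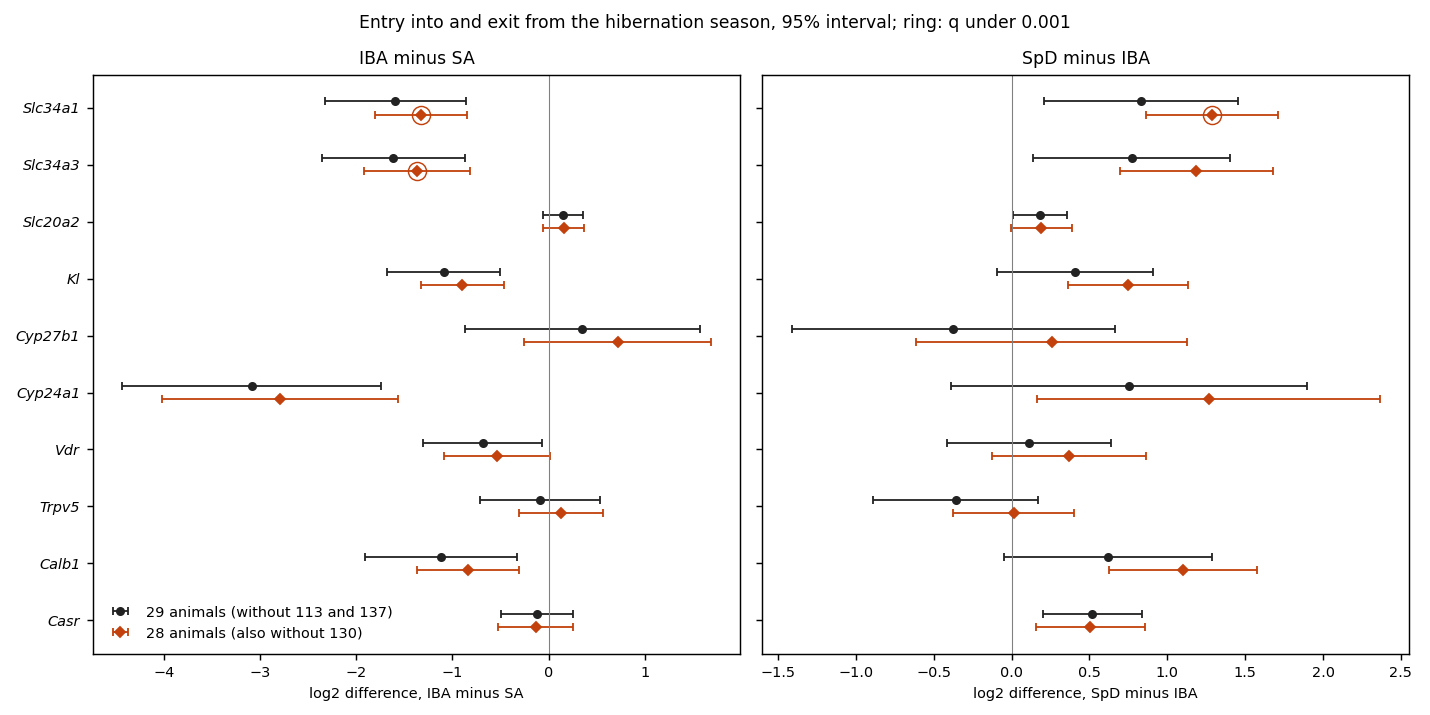
The log2 differences IBA minus SA (left) and SpD minus IBA (right) are drawn on the x axes for the 10 genes with their 95% intervals, for 29 and for 28 animals, with a ring at q below 0.001. Slc34a1 and Slc34a3 have rings on the left with 28 animals, Slc34a1 has a ring on the right, and Cyp24a1 lies farthest from 0 on the left at -3.09 with 29 animals.

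Between SA and SpD, none was called with 29 animals, against 0.0544% of all genes, with 6 at an unadjusted limma p below 0.05. At q below 0.05 Slc20a2 was lower and Cyp24a1 higher in SA, against 10.5% of all genes, 5.01% lower and 5.47% higher. Neither passed with 28 or with 31 animals, where 0.739% and 0.972% of all genes did.

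Within the torpor cycle no gene of the 10 passed q of 0.05 between neighbouring states. None was called from IBA to Ent (0.746% of all genes called, 1 member at an unadjusted limma p below 0.05), from Ent to EAr (0.132%, 0 members), from EAr to LAr (0.295%, 0 members) or from LAr to IBA (1.43%, 3 members). At q below 0.05 those shares of all genes were 13.1%, 0.257%, 0.575% and 18%. The members nearest to a call were Slc20a2 from IBA to Ent (0.24 higher in Ent, q = 0.0646) and Slc34a3 from LAr to IBA (0.85 lower in IBA, q = 0.0848). Cyp24a1 was 1.38 lower in IBA than in LAr (95% interval -2.66 to -0.11, q = 0.119) and 0.99 higher in Ent than in IBA (interval -0.15 to 2.14, q = 0.237). This last difference was 0.13 in experiment 1 (3 animals a state) and 2.29 in experiment 2 (2 animals a state), and the interaction with experiment did not pass (q = 0.973). Of all genes, only 21 passed q of 0.05 in that interaction.

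The 6 states of each gene were also put in the order of their means. That is not the order of the cycle, and sorting brings neighbouring means close by construction. Of the neighbouring means in the order of each gene's 6 states with 29 animals, the animals' ranges overlapped in all but Cyp24a1, from SA to EAr, and Casr, from SpD to SA. With 28 animals the exceptions were Casr, from SpD to SA, and Slc34a1, from SpD to EAr (a step of 0.77), and with 31 there was none. Slc34a1 averaged 16.85 ± 0.14 (SD, n = 4) in SA, 15.44 ± 0.47 (n = 5) in IBA, 15.74 ± 0.38 (n = 5) in Ent, 15.94 ± 0.19 (n = 5) in EAr, 15.73 ± 0.19 (n = 5) in LAr and 16.27 ± 1.01 (n = 5) in SpD. Its SpD mean was 16.71 without animal 130.

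Females and males were compared in the same fit, and none of the 10 genes was called, against 0.0233% of all genes. Casr alone had an unadjusted limma p below 0.05 (0.24 lower in females, q = 0.677).

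Animals 113, 137 and 130 stood apart in these genes. Animal 113 was below the other animals of LAr in 9 of the 10 genes, with Casr among them. Animal 137 was below the other SA animals in 8, with Slc20a2 among them and Casr above, and animal 130 was below the other SpD animals in the same number, with Slc20a2 among and Casr above. The gap of animal 130 to the mean of the other 4 was -2.70 for Cyp27b1, -2.69 for Cyp24a1, -2.34 for Calb1, -2.18 for Slc34a1, -2.08 for Slc34a3 and -1.60 for Kl.

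Markers of nephron segments moved in the same 3 animals. The mean of the proximal tubule markers (7 of 8 in the table) was 13.24 in animal 130 against 13.93 to 14.80 in the other SpD animals, 13.81 in 137 against 14.62 to 14.92 in SA, and 13.41 in 113 against 14.13 to 14.54 in LAr. The distal convoluted tubule markers (4 of 5 in the table) were at 9.84 in 130 against 10.81 to 11.31, 10.19 in 137 against 10.85 to 11.21, and 10.18 in 113 against 10.75 to 11.22. Inner medulla markers (4 of 5) were higher in all 3, at 13.46, 14.43 and 13.77, against highest values of 12.88, 12.61 and 11.27 in the others of their states. Podocyte markers (5 of 5) were lower in all 3, at 10.74 in 130 against 11.99 to 12.19, 11.71 in 137 against 11.85 to 12.23, and 11.59 in 113 against 11.86 to 12.21. IBA animal 104, kept in all 3 sets, had the highest inner medulla mean of its state (13.40, others 11.36 to 12.55). Its podocyte mean was the lowest (10.43, others 11.25 to 11.88), as was its proximal tubule mean (13.63, next 13.67). It had the lowest IBA values of Slc34a1, Slc34a3, Cyp24a1 and Trpv5, while animal 70 had the lowest of Kl and Calb1. With animal 104 left out of the 29, the IBA minus SA difference of Cyp24a1 was -2.68. In bulk tissue, fewer cells of a type and less RNA per cell cannot be told apart, and the part of the sampled fragment in these results was not tested.

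The same markers also differed between states. With 29 animals the proximal tubule markers ranged from 14.62 to 14.92 in SA and from 13.63 to 14.31 in IBA, a difference of -0.89 ± 0.25 (SE), beside -1.59 for Slc34a1, -1.61 for Slc34a3 and -3.09 for Cyp24a1. The distal convoluted tubule markers differed by -0.45 ± 0.25 (-0.29 ± 0.19 with 28 animals and -0.28 ± 0.27 with 31), beside -1.09 for Kl and -1.12 for Calb1. The podocyte markers, which are not of the tubule, differed by -0.75 ± 0.28 (-0.60 ± 0.24 with 28 animals), and the inner medulla markers by 0.33 ± 0.40. The tubule injury markers (5 of 6 in the table) were 0.79 higher in IBA than in SA. None of the 9 adrenal gland markers was in the table. The part of these markers in the gene differences was not tested.

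A value for each gene relative to its segment was then taken as its rlog value minus the mean of the segment's markers in the same animal. For Slc34a1 minus the proximal tubule markers, the SA animals were at 1.997 to 2.17 and animal 137 at 1.89, while the 20 hibernation animals were at 1.29 to 1.71, so that all 5 SA animals were above all 20. In SpD the values were 1.54, 2.28, 2.37 and 2.65, and 1.28 in animal 130, so 2 SpD animals were within or below the hibernation range. For Kl minus the distal convoluted tubule markers, SA was at 3.21 to 3.47 without animal 137, which was at 2.72, and IBA at 2.66 to 2.88. Over all 20 hibernation animals the range was 2.31 to 3.41 and overlapped SA. For Slc34a3 minus the proximal tubule markers, SA was at -2.09 to -1.73 and the 20 hibernation animals at -2.72 to -1.85, for Cyp24a1 SA was at -2.66 to -1.51 and hibernation at -4.96 to -2.21, and for Calb1 minus the distal convoluted tubule markers SA was at 2.92 to 3.72 and hibernation at 2.55 to 3.26. Each of these pairs of ranges overlapped, so only Slc34a1 kept SA apart from hibernation among the 5 genes given here.

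**Figure D4:**
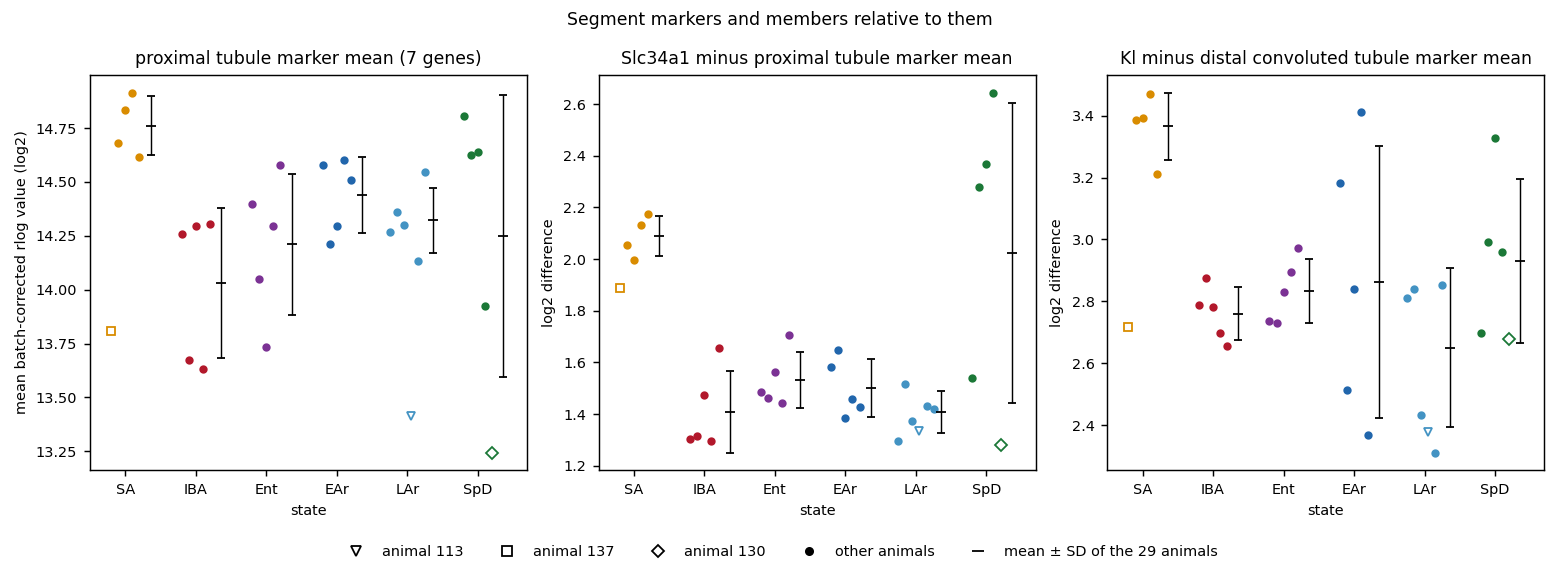
By state, with 1 point for each of the 31 animals, the left panel shows the mean rlog value of the proximal tubule markers and the others show Slc34a1 and Kl minus the marker mean of their segment in the same animal (log2 units), with the mean ± SD of the 29 animals in black and open symbols for animals 113, 137 and 130. For Slc34a1 the SA points, 137 included, lie at 1.89 to 2.17 and the 20 hibernation points of the 29 animals at 1.29 to 1.71.

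Most of the 10 genes varied more between animals of a state than most genes did. The residual SD with 29 animals was 0.874 for Cyp24a1 and 0.796 for Cyp27b1, more than in 99.5% and 99.4% of all genes, and 0.478 for Slc34a1, more than in 97.3%. Only Slc20a2, at 0.135, was below the median gene, which stood at 0.154. Casr was at 0.245.

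Other genes of the same pathways were read from 4 lists. Of 8 other phosphate transport genes in the table, 3 passed q of 0.05 between seasons with 29 animals, 1 higher and 2 lower in hibernation, as did 4 of 11 genes of the hormone receptors and phosphatonin axis (1 higher, 3 lower), 5 of 10 of vitamin D (3 higher, 2 lower) and 6 of 13 of calcium and magnesium transport (1 higher, 5 lower). At q below 0.001 these counts were 0, 0, 1 and 1, both lower. Each share lies beside 33.4% of all genes at 0.05 and 9.73% at 0.001.

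The vitamin D gene called was Cyp27a1, a mitochondrial sterol hydroxylase that can make the precursor of the hormone. SA animals were at 10.05, 10.81, 11.03 and 11.28, and at 9.997 in animal 137, IBA animals were at 8.89, 9.36, 9.36, 9.44 and 9.51, and SpD animals were at 9.97, 10.23, 10.45, 10.49 and 10.52. All SA and SpD animals were above all IBA animals, and animal 130 was here the highest of SpD. Cyp27a1 was 1.62 ± 0.26 lower in IBA than in SA (q = 0.000179) and was called across the states as well (q = 0.000353).

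The calcium gene called was Slc8a1, a sodium-calcium exchanger that carries calcium out of distal tubule cells. SA animals were at 10.46, 10.47, 10.51 and 10.58, with 137 at 9.39, IBA animals at 8.68, 8.75, 9.25, 9.27 and 9.50, and SpD animals at 10.06, 11.16, 11.17 and 11.32, with 130 at 8.55. With 137 and 130 left out, no IBA animal reached SA or SpD. Its season difference was -1.04 with 29 animals (q = 0.00067) and -1.30 with 28. Its values had r = 0.885 with those of Calb1 over 29 animals.

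The genes whose values over the 29 animals were most like each member's, by Pearson's r, were then listed as a description. For Slc34a1 they included Maob (r = 0.959) and Slc34a3 (0.942), and for Slc34a3 they included Maob (0.962) and Sfxn1 (0.959). Those of Kl included Atp6v0a1 and Slc34a1 (each 0.926), and Calb1 was most like Miox (0.922), Slc22a2 (0.889) and Slc8a1 (0.885). These animals share state, segment content and experiment.

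For the vitamin D genes the values nearest to Cyp24a1 were those of Dnajc6 (0.882), Ano3 (0.876) and Susd2 (0.875), and among those nearest to Vdr were Tmem206 (0.867) and Prr15 (0.8287). Trpv5 was nearest to Fzd7 (0.900), Insrr (0.897) and Slc6a8 (0.885), Slc20a2 to Dtnb (0.832), Calcoco1 (0.792) and Pafah2 (0.782), and Casr to Plxnb3 (0.741), Shroom2 (0.725) and Rgs5 (0.717).

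Cyp27b1 was nearest to Eef1akmt3 (0.884), Mettl1 (0.802) and Tsfm (0.769). In the RefSeq annotation of this species, which is of another build than that of the authors, these are the 3 genes next before Cyp27b1, with none overlapping it. After it r was 0.270 for Cdk4, -0.0727 for Tspan31 and 0.537 for Os9. Without animal 130, r fell to 0.808 for Eef1akmt3, 0.662 for Mettl1 and 0.619 for Tsfm, and Tsfm was no longer among the 3 nearest genes. Within the 20 animals of experiment 2, r with Eef1akmt3 was 0.936. Over the 54 neighbour pairs of the other 9 genes r ran from -0.757 to 0.788 with a median of -0.104, and reads shared between Cyp27b1 and its neighbours were not tested.

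**Figure D5:**
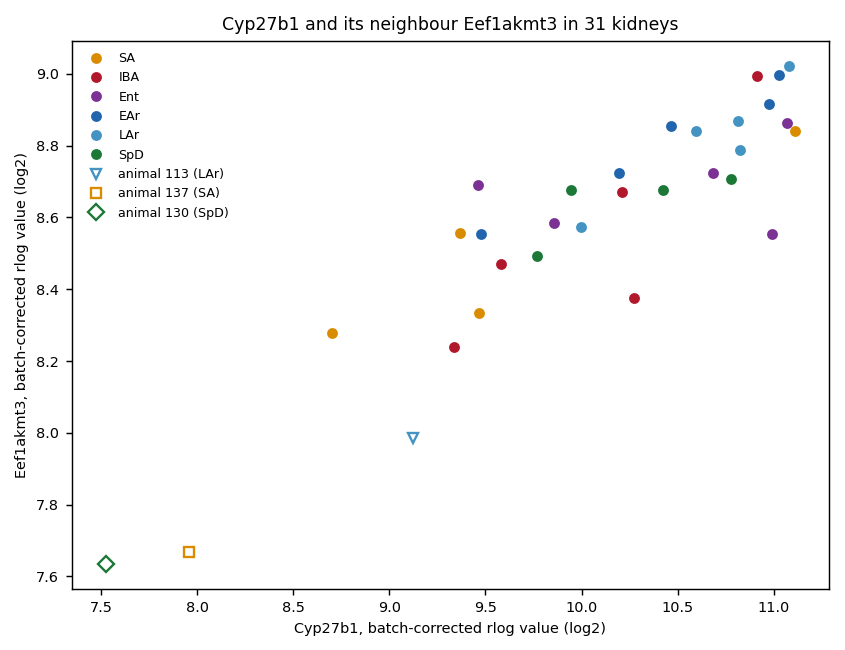
The rlog value of Eef1akmt3 (y axis, log2 scale) is plotted against that of Cyp27b1 (x axis, log2 scale) for each animal, with the states in colours and open symbols for animals 113, 137 and 130. Over the 29 animals r was 0.884, and animals 137 and 130 lie at the low end of both genes.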

How the data were processed

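RNA was measured in 31 kidneys, 1 library per animal, 9 in experiment 1 and 22 in experiment 2. The authors selected polyadenylated RNA for strand-specific libraries, trimmed reads with cutadapt, dropped mitochondrial reads found by hisat2, and estimated transcript abundance by running Salmon against HiC_Itri_2. They summed to genes with tximport and kept genes with an rlog value of 7 or more in at least 4 of 5 animals of a group. The deposited values are the authors' rlog values from DESeq2 on the log2 scale, with the difference between experiments removed by limma. They run from 4.11 to 19.79, and the means of both experiments are equal for every gene. Counts and depths are not given in this table, and 0 columns belong to other samples. Of the 10 members, 8 carry the reference annotation's symbol and 2, Cyp27b1 and Cyp24a1, were named by the authors with blastn against human.

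All 12863 genes (919 without a symbol) entered 1 linear model in limma (version 3.58.1, R 4.3.3), whose terms were state, sex and experiment and whose moderated variances followed an intensity trend, in place of the study's DESeq2 test, whose counts were not used here. The fit does not count the degree of freedom that the earlier correction took, and fitted differences can depart from those of raw means. On simulated data a log2 change of 1 was recovered in 95% of 200 genes between seasons and 91.5% across states, with 12863 genes tested. Those 200 were drawn at random from all genes (median residual SD 0.154) and shifted alike in every hibernation state. The rates do not carry over to members of larger SD, such as Slc34a1 (0.478) and Cyp24a1 (0.874). The 10 members and the gene and marker lists were chosen with earlier results of these data known. Named outside the members were pathway genes called across states at q below 0.001, in the set of 29 or of 28, and the 3 genes of highest Pearson's r with each member, some of which are not reported here. Neighbours of Cyp27b1 were looked up after those were seen. No sequence tables were used here, so the planned promoter search was not run. Alternatives are listed with their effects below. The libraries are separate animals, so the spread is biological and technical together. Figures were drawn with matplotlib 3.10.9.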

Additional observations from a re-analysis of the deposited data

Results flagged for a closer look

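Within each state, the lowest or highest animal was compared with the nearest other animal by Dixon's gap test in 60 groups of 10 genes and 6 states, and 8 groups were past the 95% limit, where chance gives about 1 in 20 if groups are independent. Slc34a1 gave 3 of them: animal 137 at 15.70 in SA (nearest other animal 16.74), animal 113 at 14.75 in LAr (15.56) and animal 130 at 14.53 in SpD (16.35). Animal 113 was also apart in LAr for Kl, at 12.56 (13.49), and for Vdr, at 10.97 (11.92), and animal 130 was apart in SpD for Vdr, at 11.12 (12.35). The other 2 were Slc20a2 in IBA, where animal 70 was at 9.96 (10.31), and Calb1 in EAr, where animal 158 was at 13.45 (13.77). The 60 groups are not independent, since the same animals recur over correlated genes (r = 0.926 for Slc34a1 and Kl with 29 animals). Animals 113 and 137 had already been left out by the study.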

How the results depend on the processing

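With 29 animals, 0 members were called at 0.001 in any comparison. At q below 0.05 the counts were 4 across states, 5 for IBA and SA, 1 for SpD and IBA, 5 for the seasons and 2 for SA and SpD. Without animal 130 they were 2, 2, 1 and 4 at 0.001 in the first 4 of these. Leaving out each animal gave 0 to 2 across states, 0 to 3 for IBA and SA, 0 to 1 for SpD and IBA and 0 to 4 for the seasons. The higher ends came without SpD animal 130, except the 3 without Ent animal 167. Leaving out Ent animal 64 or IBA animal 171 gave 1 call each, for Cyp24a1 between IBA and SA and for Slc34a1 between seasons. Leaving out Ent animal 167 also gave the call of Slc34a1 between seasons. With each animal left out, 827 to 1425 of all genes were called across states and 875 to 1558 between seasons.

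With 28 animals, q below 0.05 gave 6, 5, 5 and 7, against 42.2%, 21.8%, 14% and 32.9% of all genes. Keeping animals 113 and 137 but not 130 (30 animals) gave 0, 0, 0 and 2 called members. Of all genes, 627 were called across states and 754 between seasons with the 30 animals. In experiment 2 alone SpD is 1 animal assumed to vary like the others, so calls were not counted there. The season differences there were -0.94 for Slc34a1, -0.62 for Slc34a3, -0.38 for Kl and -0.73 for Calb1. With all 28 animals they were -1.08, -0.92, -0.63 and -0.73. These sets of alternatives for 28 animals were chosen after seeing the data. Leaving out each animal of the 28 gave 1 to 3 across states and 0 to 3 for IBA and SA. It gave 0 to 2 for SpD and IBA and 3 to 4 for the seasons. Of all genes, 806 to 1438 were then called across states and 851 to 1539 between seasons. Slc34a1 lost its IBA and SA call without IBA animal 104 or SA animal 139, 140 or 141, and its SpD and IBA call without SpD animal 80 or 83 or IBA animal 70.

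Some differences reversed sign. With 29 animals 0 members were called, so reversals could only fall on differences not called there. Trpv5 between IBA and SA was 0.0687 with 31 animals, 0.13 with 28, 0.045 without a term for experiment, and -0.23 to 0.13 with each animal left out. Trpv5 between seasons with 28 animals ran from -0.0246 (without SpD animal 84) to 0.12 with each animal left out. Cyp27b1 between IBA and SA ran from -0.0396 to 0.84 with each animal left out. Between SpD and IBA, Cyp27b1 was 0.26 and Trpv5 0.0131 without animal 130, the highest of ranges that began at -0.71 and -0.52 with each animal left out, and in experiment 2 alone Slc34a3 was -0.0356, Kl -0.23, Cyp24a1 -0.38, Vdr -0.18 and Calb1 -0.0298. Vdr between SpD and IBA ran from -0.0814 to 0.37 with each animal left out. The cause was not tested. Of 1940 member results under alternatives 1850 kept direction and side of the threshold, 26 passed it newly, 46 no longer passed it and 18 reversed. A filter at a mean of 8 drops Trpv5. Precision is limited by 4 to 5 animals a state. No paired analysis was possible because each animal carries its own number.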
